A study of Mus musculus with 22 samples.

Results

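The cytochrome P450 genes of the hepatocyte (Cyp genes) are described here by the openness of the chromatin around them. A gene was taken when its symbol had the form of a P450 (Cyp, a family number, a subfamily letter and a gene number) and when at least 1 ATAC-seq peak annotated to it lay within 50 kb of its transcription start. The bile acid enzymes Cyp7a1, Cyp7b1, Cyp8b1 and Cyp27a1 and also Cyp2e1, Cyp1a2, Cyp2d9 and Cyp2a4 were set aside. This left 67 of the 15686 genes with such a peak, and 239 of the 68827 peaks. ATAC-seq uses a transposase that inserts adapters into accessible DNA, so each value is a count of fragments over open chromatin and not a level of mRNA or protein.

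The nuclei came from livers of male HEP-INTACT mice, a line in which tagged hepatocyte nuclei can be pulled out of whole liver on beads. For the driver of the tag, strain background and age, the labels give nothing. The mice received either the FPC diet (fructose, palmitate, cholesterol) for 20 weeks or the CDAHFD (high in fat, poor in choline, with defined amino acids) for 7 weeks, both used to cause fatty, inflamed liver (NASH), or a low-fat control diet for the same period. Mice on each NASH diet had been sorted by liver histology into a mild group, with steatosis and inflammation but little scarring, and an advanced group, which also had marked fibrosis. There were 4 libraries each of FPC control, FPC mild, CDAHFD control and CDAHFD mild, and 3 each of FPC advanced and CDAHFD advanced. The title of each of the 22 libraries carries a number of its own, which the labels do not explain, so p-values measure the spread between these libraries. The disease groups were defined by histology and not assigned, and diet and time on diet change together.

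P450 enzymes are haem proteins of the endoplasmic reticulum or mitochondrion that insert an oxygen atom into a substrate, with electrons delivered by a reductase. Families 1 to 3 mainly handle drugs, pollutants and steroids, family 4 hydroxylates the far end of fatty acids and eicosanoids, and the higher-numbered families make or break down hormones, vitamins and sterols. In the liver most are hepatocyte genes driven by HNF4A and C/EBP factors, and many respond to the receptors CAR (Nr1i3), PXR (Nr1i2), PPARA and AhR. In mice the large subfamilies sit in tandem clusters of similar genes, here Cyp2a, Cyp2b, Cyp2f, Cyp2g and Cyp2s on chromosome 7, Cyp2c on chromosome 19, Cyp2d on chromosome 15, Cyp2j and Cyp4a on chromosome 4, Cyp3a on chromosome 5 and most of Cyp4f on chromosome 17. Within a cluster the nearest start decides which gene a peak is counted for, and fragments from near-identical copies may be split between them, since no source used here says how reads that map to several places were handled.

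Libraries held between 3785066 and 9328963 counts over peaks, the fewest in FPC control replicate 2 and the most in CDAHFD mild replicate 4. All 8 hepatocyte markers looked for (Alb, Apoa1, Apob, Ttr, Hnf4a, Cps1, Tat, Serpina1c) had peaks, with a summed level of 1398 to 2134 CPM (the usual unit of counts scaled to library size). Of these 8, 6 were lower in the advanced group of each diet than in its controls and none was higher. Markers of other cells moved too: 6 of 7 cholangiocyte markers were measured, and their summed level went from 194 to 218 CPM in FPC controls to 336 to 428 in advanced FPC, and from 199.7 to 248 in CDAHFD controls to 290.1 to 316 in advanced CDAHFD. Cholangiocyte markers called higher numbered 6 in advanced FPC and 5 in advanced CDAHFD. Of the stellate cell markers 2 of 8 were measured, 1 of them called higher in each diet (26.7 to 43.7 CPM in FPC controls, 47.3 to 65.6 in advanced FPC, 37.2 to 49.9 in CDAHFD controls and 45.03 to 57.98 in advanced CDAHFD), and Col1a2, Col3a1, Lrat, Des, Pdgfrb and Dcn had no peak. Of the macrophage markers 2 of 8 were measured, both called higher in advanced FPC and 1 in advanced CDAHFD (10.4 to 16.3 CPM in FPC controls, 18.2 to 21.8 in advanced FPC, 10.98 to 15.3 and 19.7 to 21.3 for CDAHFD), with Clec4f, Cd68, Vsig4, Timd4, Cd5l and Marco without a peak. Endothelial markers had 7 of 8 measured, of which 1 rose and 3 fell in advanced FPC and none rose and 4 fell in advanced CDAHFD (229.9 to 250.002 CPM in FPC controls and 192 to 198 in advanced FPC, 259 to 284 and 177 to 217 for CDAHFD). Of 8 lymphocyte markers 3 (Ptprc, Cd4, Themis) were measured, all lower in both diets (197 to 208 CPM in FPC controls and 84.4 to 96.7 in advanced FPC, 189 to 219.6 and 92.4 to 115 for CDAHFD). Beside these counts, 29.0% of all genes were called lower and 32.4% higher in advanced FPC, and 28.0% and 30.2% in advanced CDAHFD. The part of these markers in the P450 results was not tested.

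Promoter sequences are shown for 8 members whose promoter peaks carry results below: peaks that opened or closed, related Cyp3a copies, and 1 that did not pass the test (Cyp2c70). Each is the 250 bases upstream of the RefSeq start on the strand of the gene, 5′ to 3′ (GRCm38.p6, which is mm10). Capitals mark matches, on either strand, to AGGTCA (the core hexamer bound by many nuclear receptors), CAAAGTCCA (HNF4), TGTTTNC (FOXA), TTCNNNGAA (STAT), TGANTCA (AP-1), GCGTG (core of the AhR site) or TATAAA (the box bound by TBP). TTCNNNGAA and TGANTCA read the same on both strands, and the others were also searched as their reverse complements. Capital stretches in the printed sequences do not overlap.
Cyp3a11: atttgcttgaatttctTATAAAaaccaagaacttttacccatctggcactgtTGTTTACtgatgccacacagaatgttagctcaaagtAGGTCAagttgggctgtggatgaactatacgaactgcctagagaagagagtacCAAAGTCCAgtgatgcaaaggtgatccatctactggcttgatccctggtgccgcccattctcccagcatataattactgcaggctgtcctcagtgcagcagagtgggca
Cyp3a25: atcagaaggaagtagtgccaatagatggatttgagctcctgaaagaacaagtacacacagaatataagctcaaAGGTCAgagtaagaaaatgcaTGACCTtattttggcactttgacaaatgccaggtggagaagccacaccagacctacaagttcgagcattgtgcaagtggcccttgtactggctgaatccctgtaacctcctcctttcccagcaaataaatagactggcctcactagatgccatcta
Cyp3a59: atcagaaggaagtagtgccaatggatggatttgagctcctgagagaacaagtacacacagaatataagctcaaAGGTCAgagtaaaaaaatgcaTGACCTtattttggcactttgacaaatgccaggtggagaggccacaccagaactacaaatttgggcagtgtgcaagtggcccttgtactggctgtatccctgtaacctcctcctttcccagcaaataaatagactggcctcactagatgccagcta
Cyp3a57: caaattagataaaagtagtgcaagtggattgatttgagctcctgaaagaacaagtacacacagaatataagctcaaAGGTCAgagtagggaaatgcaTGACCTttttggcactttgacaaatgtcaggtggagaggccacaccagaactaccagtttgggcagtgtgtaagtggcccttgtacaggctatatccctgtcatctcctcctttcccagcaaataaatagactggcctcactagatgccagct
Cyp2c70: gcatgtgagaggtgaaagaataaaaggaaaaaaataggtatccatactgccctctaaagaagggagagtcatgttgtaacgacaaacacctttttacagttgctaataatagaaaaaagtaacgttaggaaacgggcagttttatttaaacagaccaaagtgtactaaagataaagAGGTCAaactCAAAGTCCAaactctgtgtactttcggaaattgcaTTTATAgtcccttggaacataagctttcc
Cyp2j5: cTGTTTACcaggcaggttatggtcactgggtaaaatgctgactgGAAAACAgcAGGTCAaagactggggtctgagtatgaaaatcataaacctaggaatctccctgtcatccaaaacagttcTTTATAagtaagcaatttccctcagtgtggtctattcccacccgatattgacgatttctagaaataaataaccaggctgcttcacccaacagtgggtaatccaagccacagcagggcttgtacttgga
Cyp2f2: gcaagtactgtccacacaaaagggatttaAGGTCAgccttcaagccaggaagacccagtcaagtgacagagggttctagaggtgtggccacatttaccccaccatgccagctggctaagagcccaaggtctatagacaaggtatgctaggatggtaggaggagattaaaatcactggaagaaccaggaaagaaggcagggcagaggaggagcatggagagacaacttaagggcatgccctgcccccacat
Cyp4f16: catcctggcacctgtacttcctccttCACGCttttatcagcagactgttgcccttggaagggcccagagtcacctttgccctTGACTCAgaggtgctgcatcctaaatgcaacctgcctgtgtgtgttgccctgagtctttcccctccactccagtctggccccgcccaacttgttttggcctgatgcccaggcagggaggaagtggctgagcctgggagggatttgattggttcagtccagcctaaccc
The stretches lie at chr5:145879855-145880104 (minus strand), chr5:146009618-146009867 (minus), chr5:146079008-146079257 (plus), chr5:145345019-145345268 (plus), chr19:40187287-40187536 (minus), chr4:96664120-96664369 (minus), chr7:27119705-27119954 (plus) and chr17:32536307-32536556 (plus).

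The printed Cyp3a25 and Cyp3a59 stretches matched at 239 of 250 bases (95.6%). Cyp3a25 and Cyp3a57 matched at 159 of 250 (63.6%, compared without gaps). That value belongs to a second RefSeq start of Cyp3a25, whose stretch (chr5:146009619-146009868) is not printed. The printed one is offset from Cyp3a57. The next highest value, by the same base-by-base count without shifts or gaps, was 40.4% for Cyp2c39 and Cyp2c50. Such a count misses the likeness of offset sequences, as in Cyp2a12 and Cyp2a22, and understates that of Cyp3a25 and Cyp3a57. All 3 of these Cyp3a promoters hold a pair of hexamers on opposite strands. As printed, they stand at -177 and -156 in Cyp3a25 and Cyp3a59 and at -174 and -153 in Cyp3a57 (position of the first base, counted back from the start). Cyp3a11, the main hepatic Cyp3a of the mouse, has a hexamer at -162, an HNF4 match at -109 and a FOXA match at -198. Of the 67 members 50 had at least 1 start in the RefSeq table, with 57 stretches in all, and 17 had none. The HNF4 word was found in 8.77% of these stretches against 0.384% of the 32851 mouse stretches of the same length, in Cyp2c67, Cyp2c68, Cyp2c70, Cyp3a11 and Cyp3a16. The TBP box stood in 35.1% against 12.4% and the hexamer in 24.6% against 14.0%. Shares were 17.5% against 17.8% for FOXA, 7.02% against 7.02% for STAT, 7.02% against 6.75% for AP-1 and 21.1% against 28.2% for the AhR core. Members of a cluster share sequence, so these stretches are not independent.

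In advanced disease more P450 genes lost accessibility than gained it, by the sum of counts over each gene's peaks. In advanced FPC against FPC control 27 of 67 members were lower and 9 higher, where lower and higher mean an adjusted p under 0.05 in the fit over all genes. Over all 15686 genes, 29.0% were lower and 32.4% higher. In advanced CDAHFD against its control 29 members were lower and 10 higher, against 28.0% and 30.2% of all genes. The median log2 fold change of the members was -0.16 in FPC and -0.23 in CDAHFD, and that of all genes 0.03 and 0.01. Summed over all 67 members, accessibility was 3593 ± 121 CPM in the 4 libraries of FPC controls (mean ± SD), 3499 ± 131 in the 4 of mild FPC and 2864 ± 131 in the 3 of advanced FPC, and 3430.3 ± 136, 3305 ± 139 and 2845 ± 173 in the same groups of CDAHFD. The advanced libraries did not overlap the controls of either diet, and the mild libraries did. In bulk chromatin of this kind, fewer nuclei with an open site and less opening per nucleus cannot be told apart.

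Advanced disease was also lower than mild disease. Against mild FPC, 28 members were lower in advanced FPC and 2 higher (15.9% and 15.6% of all genes), with a median of -0.26 for members and 0.01 for all genes. In advanced against mild CDAHFD 22 were lower and 2 higher (7.76% and 9.63% of all genes), with medians of -0.24 and 0.01. With the scaling factors of all peaks, a choice made after seeing the data, advanced against mild FPC gave 3170 higher and 1953 lower of all genes in place of 2444 and 2497, and 3 higher and 26 lower members. Mild disease against control gave 10 lower and 11 higher members in FPC (18.9% and 21.3% of all genes) and 14 lower and 16 higher in CDAHFD (21.0% and 23.9%). Member medians were 0.08 and 0.04 there, beside 0.02 and 0.01 for all genes. Without FPC control replicate 3, FPC control replicate 4 or FPC mild replicate 3, the 11 higher members of mild FPC became 6, 5 and 6, and without CDAHFD advanced replicate 2 the 22 lower members became 13. All peaks within 50 kb entered these sums; with peaks within 1 kb of the start alone, 40 members remained in the sums. Of these 19 were lower and 3 higher in advanced FPC and again 19 lower and 3 higher in advanced CDAHFD, against 25.7% and 26.0% of 11758 genes in FPC and 25.3% and 26.5% in CDAHFD.

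**Figure D1:**
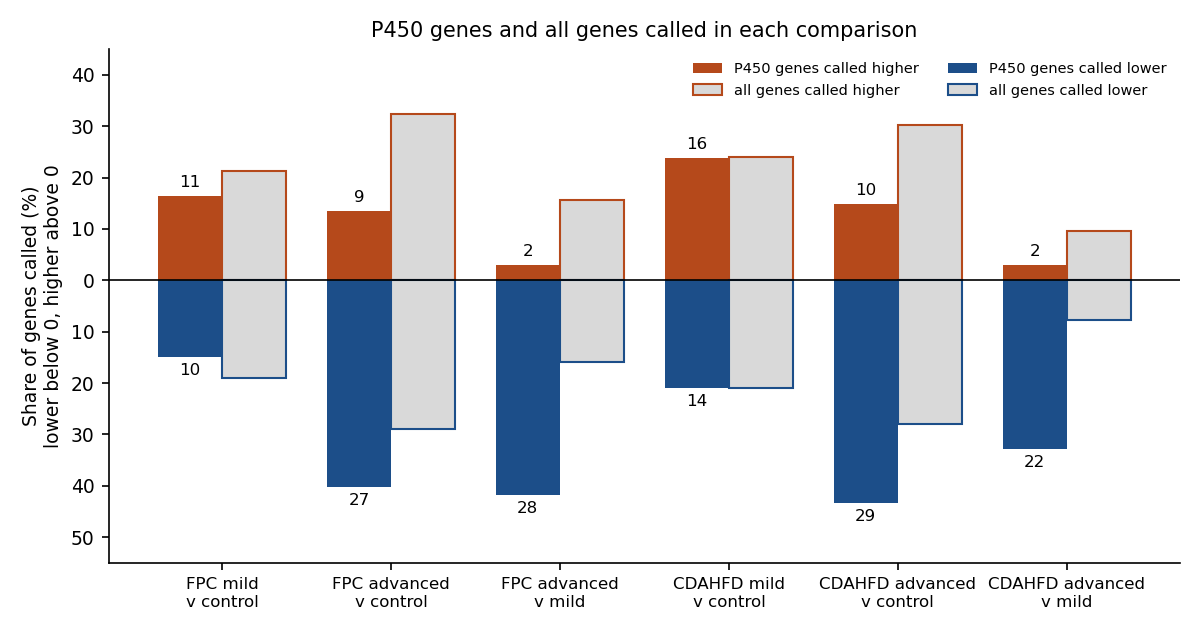
Share of genes called in each of 6 comparisons (vertical axis, percent; higher above 0, lower below 0) for the 67 P450 genes (coloured bars, with the number of genes) and all 15686 genes (grey bars). The lower bars of the P450 genes exceed those of all genes in the advanced comparisons, and their higher bars fall short of them.

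In the advanced stage most called members were called in both diets. Of the 67 members 25 (37.3%) were lower in both diets, against 21.6% of all genes, and 8 (11.9%) were higher in both, against 23.8%. None was called in opposite directions and 25 were called in neither. Across the 67 members the log2 fold changes of the 2 diets had a Pearson r of 0.896, and across all genes 0.909; genes are not independent replicates, and genes of a cluster share neighbouring chromatin. The diets have separate controls. Higher in both were Cyp11b2, Cyp19a1, Cyp1b1, Cyp2b19, Cyp2s1, Cyp3a44, Cyp4b1 and Cyp4f16. Cyp3a57 was called higher in FPC alone and Cyp39a1 and Cyp3a59 lower in FPC alone; Cyp2a5 and Cyp3a11 were higher and Cyp2d22, Cyp3a16, Cyp46a1 and Cyp4f17 lower in CDAHFD alone. In mild disease fewer calls were shared: 7 members (10.4%) were higher in both diets and 7 (10.4%) lower in both, against 14.0% and 11.5% of all genes. In FPC alone 4 were higher and 3 lower, in CDAHFD alone 9 were higher and 7 lower, and 30 were called in neither. The mild changes of the 2 diets had an r of 0.655 across members and 0.765 across all genes.

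**Figure D2:**
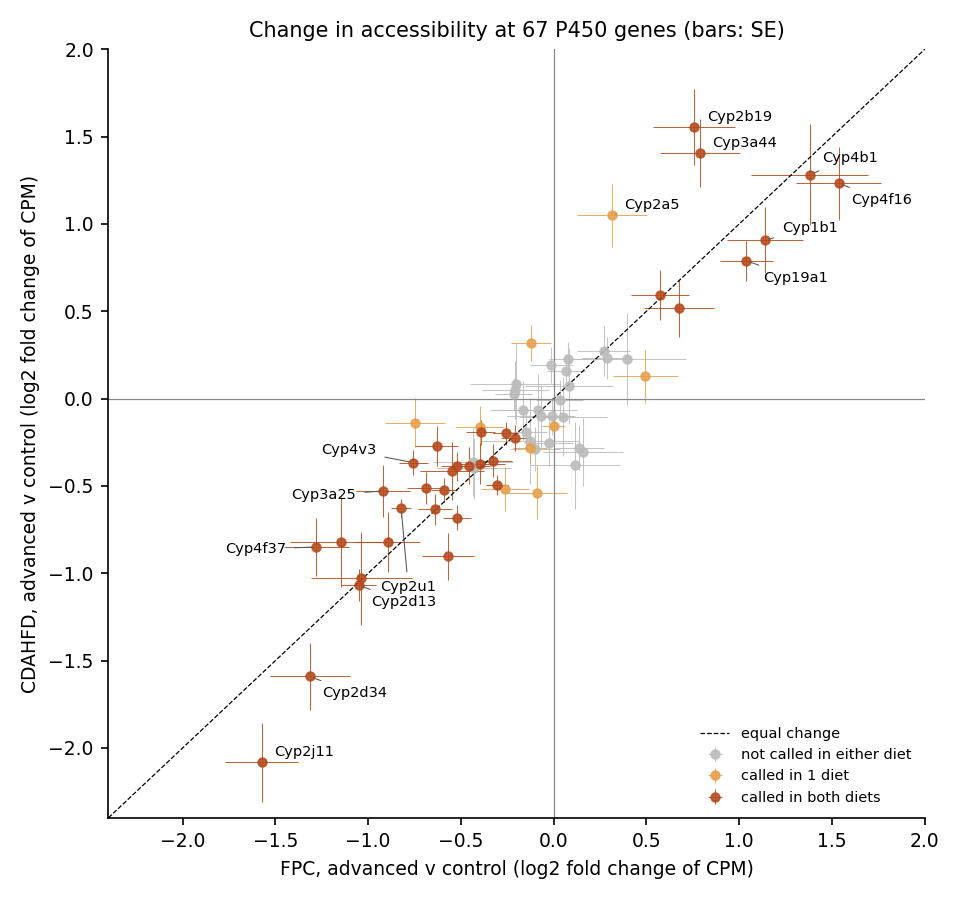
Log2 fold change of summed CPM, advanced against control, in FPC (horizontal axis) and CDAHFD (vertical axis) for the 67 P450 genes, with standard errors as bars and the dashed line at equal change. Cyp2j11 and Cyp2d34 lie lowest in both diets, Cyp4f16 and Cyp4b1 high in both, and Cyp2a5, Cyp2b19 and Cyp3a44 above the line.

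The Cyp2d genes, relatives of the human drug-metabolizing CYP2D6, are 8 neighbours on chromosome 15. All 8 members fell in advanced CDAHFD and 7 of 8 in advanced FPC, Cyp2d22 being the exception (-0.26 ± 0.13 SE on the log2 scale, adjusted p = 0.082). Over all genes 28.0% were called lower in advanced CDAHFD and 29.0% in advanced FPC. Their summed accessibility over 40 peaks was 698 ± 27.6 CPM in FPC controls, 649 ± 35.1 in mild and 469 ± 51.98 in advanced FPC. For CDAHFD the same sums were 719 ± 57.1, 604 ± 41.5 and 460.1 ± 35.3. The advanced means lay 32.9% and 36.0% under those of the controls, with no overlap of libraries. No test was run on subfamily sums, whose genes are neighbours.

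The sums of a gene depend on its number of peaks, so levels are not compared between genes; over the 8 control libraries they had a median of 32.7 CPM. Cyp2d10, with 8 peaks, read 182, 188, 173 and 199 CPM in the 4 FPC controls, 176, 169.6, 180.0 and 175 in mild and 140.3, 117 and 130.4 in advanced FPC. It read 195, 180.3, 211 and 185 in the CDAHFD controls, 160.3, 154, 160.2 and 160.2 in mild and 126, 103 and 132 in advanced CDAHFD. Advanced libraries were below every control and every mild library of their diet. The log2 fold change was -0.52 ± 0.07 (SE; adjusted p = 2.3e-06) in FPC and -0.68 ± 0.07 (adjusted p = 2.7e-08) in CDAHFD, and in mild disease only CDAHFD passed the test (-0.28 ± 0.07, adjusted p = 0.0012).

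Cyp2d13, a transcribed pseudogene in RefSeq, lost accessibility at both stages. Its values were 119.8, 128, 113 and 116 CPM in FPC controls, 105, 92.6, 96.2 and 86.9 in mild and 65.2, 48.1 and 59.5 in advanced FPC. For CDAHFD they were 127, 117, 133 and 113, then 87.7, 81.9, 83.9 and 96.6, then 56.8, 53.1 and 65.5. Every stage was lower than the one before it without overlap in both diets. Advanced against control gave -1.05 ± 0.09 (adjusted p = 2.1e-09) and -1.07 ± 0.09 (adjusted p = 6.3e-10). Cyp2d34, counted from 1 peak, changed by -1.32 ± 0.22 and -1.59 ± 0.19 (adjusted p = 1.4e-05 and 1.7e-07), from 8.72 ± 1.31 to 3.56 ± 0.8288 CPM and from 11.1 ± 0.847 to 3.71 ± 1.05. The other Cyp2d genes that fell in both diets, Cyp2d11, Cyp2d12, Cyp2d26 and Cyp2d40, had log2 fold changes of -0.69 to -0.40 in FPC and of -0.63 to -0.37 in CDAHFD. At the promoter peaks, Cyp2d13 changed by -0.998 ± 0.15 and -0.97 ± 0.14 (adjusted p = 5.5e-06 and 2.4e-06). Cyp2d10 changed there by -0.28 ± 0.11 and -0.26 ± 0.10 (adjusted p = 0.026 and 0.029), calls that DESeq2 did not make (adjusted p = 0.061 and 0.080). The Cyp2d13 peak at -957 bp (chr15:82642902-82643102) went from 31.01, 28.6, 28.6 and 26.1 CPM in FPC controls to 10.5, 7.12 and 10.5 in advanced FPC and from 28.4, 27.2, 28.2 and 24.6 to 6.73, 9.18 and 13.1 in CDAHFD, which is -1.62 ± 0.17 and -1.51 ± 0.16 (adjusted p = 1.7e-08 and 1.4e-08).

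Cyp2j genes encode epoxygenases that turn arachidonic acid into vasoactive lipids. Of 4 measured members, which are neighbours, 3 fell in the advanced stage of both diets, as did 21.6% of all genes. Cyp2j6 did not pass the test (-0.10 ± 0.13 and -0.29 ± 0.12, adjusted p = 0.52 and 0.051). The subfamily sum went from 299 ± 17.5 CPM to 261 ± 5.58 and 185 ± 8.03 in FPC, and from 269 ± 20.5 to 223 ± 5.82 and 172 ± 20.5 in CDAHFD, which is 37.9% and 35.9% lower in the advanced groups. Libraries of the 3 stages did not overlap in either diet.

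Cyp2j5, the renal and hepatic epoxygenase of the group, had 149, 165, 173 and 181 CPM in FPC controls, 144, 141, 139 and 140.0 in mild and 114, 104 and 115 in advanced FPC. In CDAHFD it had 149, 166, 160.0 and 164 in controls, 127, 137, 136 and 138 in mild and 112, 98.00 and 123 in advanced disease. Both stages were lower than control in both diets: -0.24 ± 0.06 and -0.59 ± 0.07 in FPC (adjusted p = 0.005 and 1.6e-07), -0.25 ± 0.06 and -0.52 ± 0.07 in CDAHFD (adjusted p = 0.0023 and 5.9e-07). Its promoter peak at -10 bp, over part of the printed stretch, changed by -0.63 ± 0.09 and -0.50 ± 0.09 (adjusted p = 2.0e-06 and 2.1e-05).

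Cyp2j11 had the largest fall of the 67 members in both diets, with 40.1, 38.3, 37.6 and 29.9 CPM in FPC controls, 31.1, 33.96, 38.1 and 33.04 in mild and 14.98, 13.8 and 8.02 in advanced FPC. The CDAHFD values were 28.5, 17.7, 24.8 and 19.2 in controls, 17.5, 14.3, 10.7 and 18.2 in mild and 6.19, 3.55 and 5.90 in advanced disease. In FPC the mild libraries overlapped the controls and only the advanced ones stood apart, while in CDAHFD the mild group was called lower (-0.56 ± 0.17, adjusted p = 0.01) with some overlap. The advanced change was -1.57 ± 0.20 (adjusted p = 3.2e-07) and -2.08 ± 0.23 (adjusted p = 3.2e-08). Cyp2j11 had no promoter peak, and its 2 peaks lay 17853 and 23404 bp from its start, so its values describe distal stretches. A peak 23404 bp from its start (chr4:96325176-96325376) went from 19.9, 22.8, 18.5 and 14.2 CPM in FPC controls to 7.59, 7.83 and 3.98 in advanced FPC (-1.53 ± 0.22, adjusted p = 1.7e-06) and from 12.7, 9.27, 10.7 and 9.51 to 3.10, 1.67 and 2.85 in CDAHFD (-2.01 ± 0.25, adjusted p = 1.6e-07). Cyp2j9, another epoxygenase, changed by -0.90 ± 0.18 and -0.82 ± 0.17 (adjusted p = 1.1e-04 and 2.4e-04).

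**Figure D3:**
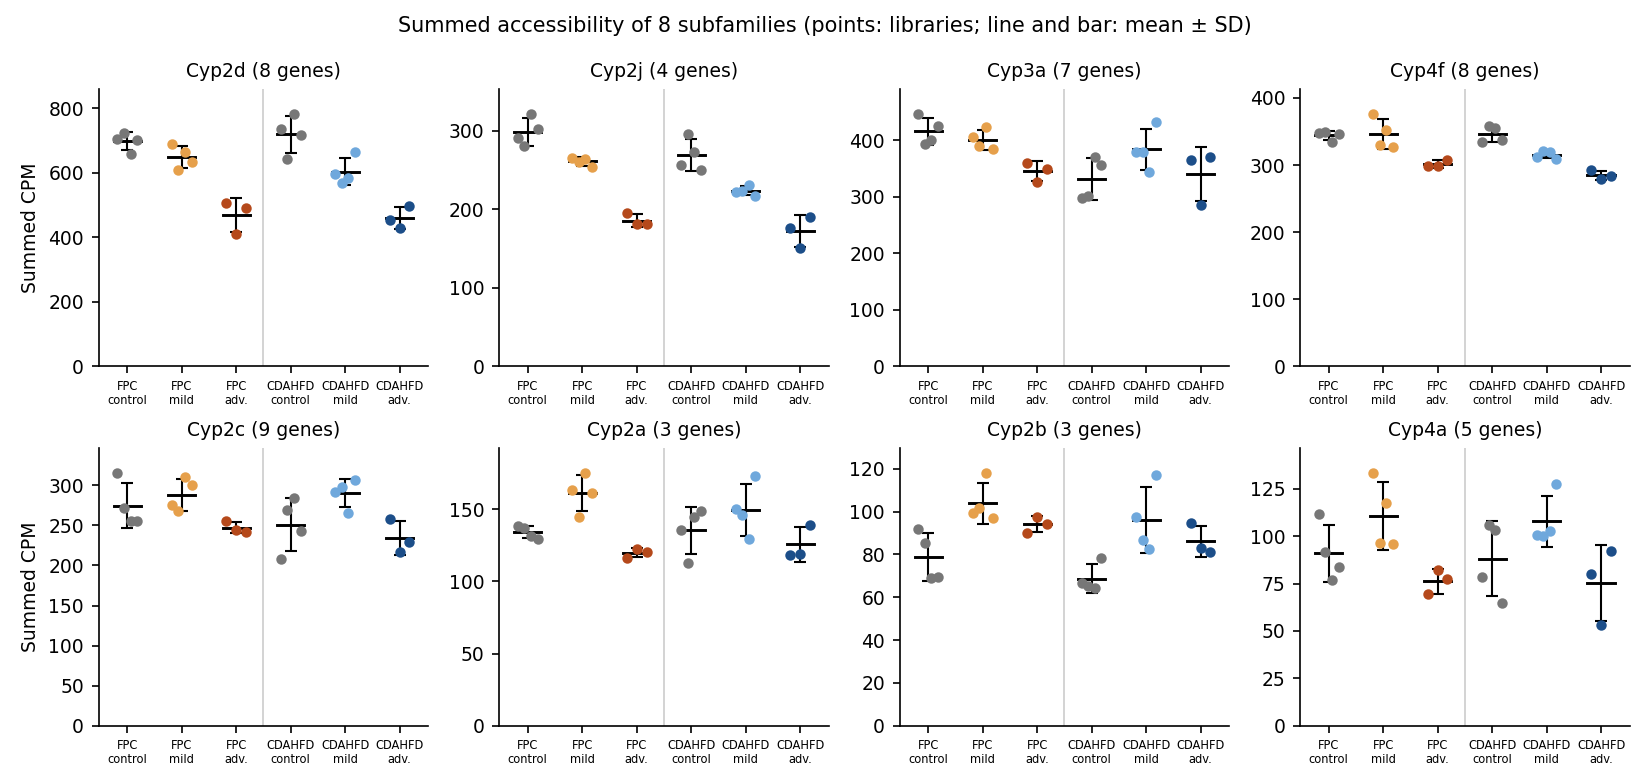
Summed CPM of the peaks of 8 subfamilies with 3 or more members (vertical axes, each starting at 0) in each library, by diet and stage; lines and bars give mean ± SD. The means of Cyp2d and Cyp2j step down from control to mild to advanced, while Cyp2b lies above its controls in the mild groups.

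Cyp2u1, a hydroxylase of arachidonic and other long-chain fatty acids, was the member with the smallest p in FPC and the second smallest in CDAHFD. Its 9 peaks summed to 179, 186, 183 and 184 CPM in FPC controls, 127, 135, 137 and 139 in mild and 105, 97.1 and 109 in advanced FPC, and to 182, 164, 170.3 and 178 in controls, 136, 129, 139 and 130.0 in mild and 109, 111 and 119 in advanced disease of CDAHFD. No library of one stage overlapped another stage of its diet. The advanced change was -0.82 ± 0.06 (adjusted p = 1.9e-11) in FPC and -0.63 ± 0.05 (adjusted p = 7.5e-10) in CDAHFD, and the mild change -0.44 ± 0.05 and -0.38 ± 0.05 (adjusted p = 7.1e-07 and 1.1e-06). Its promoter peak at -21 bp changed less, by -0.37 ± 0.12 in FPC (adjusted p = 0.01) and without passing the test in CDAHFD (adjusted p = 0.8). A peak 7589 bp upstream (chr3:131310716-131310916) went from 24.2, 27.04, 26.6 and 25.8 CPM in FPC controls to 7.92, 5.84 and 11.3 in advanced FPC, and from 25.8, 21.2, 22.8 and 26.1 to 6.20, 5.34 and 7.68 in CDAHFD. Those are changes of -1.64 ± 0.17 and -1.90 ± 0.17 (adjusted p = 1.2e-08 and 4.7e-10).

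Among the fatty acid omega-hydroxylases of family 4, 15 of 18 listed genes were measured. In advanced FPC 5 of them were lower and 2 higher (29.0% and 32.4% of all genes), and in advanced CDAHFD 6 were lower and 2 higher (28.0% and 30.2%). Cyp4v3, the mouse counterpart of the gene mutated in Bietti crystalline dystrophy, read 135, 133, 131 and 128 CPM in FPC controls, 109, 96.3, 109 and 89.4 in mild and 77.7, 74.8 and 80.9 in advanced FPC. It read 123, 132, 123 and 131 in CDAHFD controls, 109, 103, 103 and 116 in mild and 95.1, 87.9 and 112 in advanced CDAHFD. All disease libraries lay below their controls, with log2 fold changes of -0.76 ± 0.08 in advanced FPC and -0.37 ± 0.07 in advanced CDAHFD (adjusted p = 1.8e-08 and 1.6e-04).

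The Cyp4f genes act on leukotrienes and fatty acids, and they moved in both directions. Cyp4f15, with 5 peaks, had 107, 99.3, 105 and 106 CPM in FPC controls and 89.9, 84.8 and 78.8 in advanced FPC, and 110.0, 105, 110.3 and 105 in CDAHFD controls and 77.4, 73.7 and 77.99 in advanced CDAHFD, changes of -0.30 ± 0.06 and -0.49 ± 0.06 (adjusted p = 1.1e-04 and 8.5e-08). Its mild values were 112, 96.7, 107 and 100.1 in FPC, overlapping the controls, and 92.5, 96.8, 98.3 and 95.6 in CDAHFD, all below them. A peak at -392 bp (chr17:32685139-32685339) went from 11.9, 8.48, 12.1 and 12.6 CPM in FPC controls to 9.78, 8.83 and 7.32 in advanced FPC and from 14.7, 8.97, 15.9 and 16.6 to 7.69, 6.01 and 6.83 in CDAHFD (-0.39 ± 0.19 and -1.02 ± 0.18, adjusted p = 0.084 and 3.2e-05). Its promoter peak at -89 bp changed by -0.17 ± 0.11 and -0.23 ± 0.10 (adjusted p = 0.17 and 0.055). Cyp4f37 fell from 22.9, 20.7, 23.9 and 25.5 CPM to 8.34, 10.02 and 10.3 in advanced FPC and from 17.8, 19.3, 19.00 and 14.3 to 9.90, 7.86 and 11.5 in advanced CDAHFD (-1.28 ± 0.17 and -0.85 ± 0.17, adjusted p = 1.1e-06 and 1.3e-04), with no overlap. Its 2 peaks lay 13988 and 16020 bp from its start, with none in the promoter. Cyp4f14, a leukotriene hydroxylase, was lower, with changes of -0.21 ± 0.08 and -0.23 ± 0.07 (adjusted p = 0.024 and 0.011).

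Cyp4f16 went the other way. Its only peak lies in the promoter at -82 bp (chr17:32536375-32536575), over the stretch printed above that holds an AP-1 word at -168. The gene read 3.44, 2.51, 3.92 and 3.55 CPM in FPC controls, 5.33, 5.15, 4.01 and 4.77 in mild and 6.45, 11.1 and 12.1 in advanced FPC, and 3.18, 4.73, 3.24 and 3.57 in controls, 4.68, 6.37, 5.05 and 6.93 in mild and 8.91, 8.23 and 8.68 in advanced disease of CDAHFD. All 3 advanced libraries of each diet were above all controls and all mild libraries, with changes against control of 1.54 ± 0.23 (adjusted p = 4.0e-06) and 1.23 ± 0.21 (adjusted p = 1.9e-05). Cyp4b1, which hydroxylates fatty acids and some toxins, was counted from 1 peak outside the promoter, 11683 bp from its start. It read 3.72, 1.88, 3.13 and 3.55 CPM in FPC controls and 8.91, 8.77 and 6.59 in advanced FPC. In CDAHFD it read 1.84, 3.51, 3.52 and 3.17 in controls and 6.19, 7.11 and 9.01 in advanced disease. The advanced libraries did not overlap the controls, and the change was 1.38 ± 0.32 and 1.28 ± 0.29 (adjusted p = 5.8e-04 and 5.1e-04).

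Cyp4f39, a hydroxylase of very long fatty acids known from the skin barrier, was called higher at the mild stage of both diets and not at the advanced stage (adjusted p = 0.69 and 0.19). It had 9.46, 10.7, 5.48 and 5.63 CPM in FPC controls, 15.8, 12.4, 14.8 and 17.00 in mild and 9.48, 6.89 and 8.55 in advanced FPC. The mild FPC libraries were above all others of that diet (0.98 ± 0.21 against control, adjusted p = 0.001; advanced against mild -0.86 ± 0.21, adjusted p = 0.0031). CDAHFD gave 6.70, 9.47, 4.64 and 4.76 in controls, 8.46, 10.01, 8.42 and 10.03 in mild and 5.69, 4.11 and 4.59 in advanced, with 0.54 ± 0.21 for mild against control (adjusted p = 0.036) although 1 control lay within the mild range. That mild CDAHFD call was lost when only the compared groups were fitted (adjusted p = 0.054).

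The Cyp4a genes are induced by PPARA. Their 5 members summed to 90.9 ± 15.2 CPM in FPC controls, 111 ± 18.03 in mild and 76.3 ± 6.63 in advanced FPC, and 88.2 ± 19.97, 108 ± 13.4 and 75.1 ± 20.1 in CDAHFD. Advanced libraries overlapped the controls in both diets and lay below the mild libraries in both. Cyp4a12a, the male-predominant member, was the only one called against control in the advanced stage (-1.04 ± 0.27 and -1.03 ± 0.27, adjusted p = 0.0021 and 0.002, from 1 peak at 10.3 and 8.43 CPM in the controls). In mild CDAHFD Cyp4a10 and Cyp4a31 were higher (0.50 ± 0.20 and 0.40 ± 0.15, adjusted p = 0.043 and 0.031). Cyp4a32, the member with the largest sum, had 30.7, 24.2, 26.6 and 21.3 CPM in FPC controls and 17.8, 20.3 and 18.9 in advanced FPC, and 30.7, 31.04, 30.3 and 16.9 in CDAHFD controls and 24.2, 13.1 and 25.6 in advanced CDAHFD, and did not pass the test in either (adjusted p = 0.082 and 0.11).

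**Figure D4:**
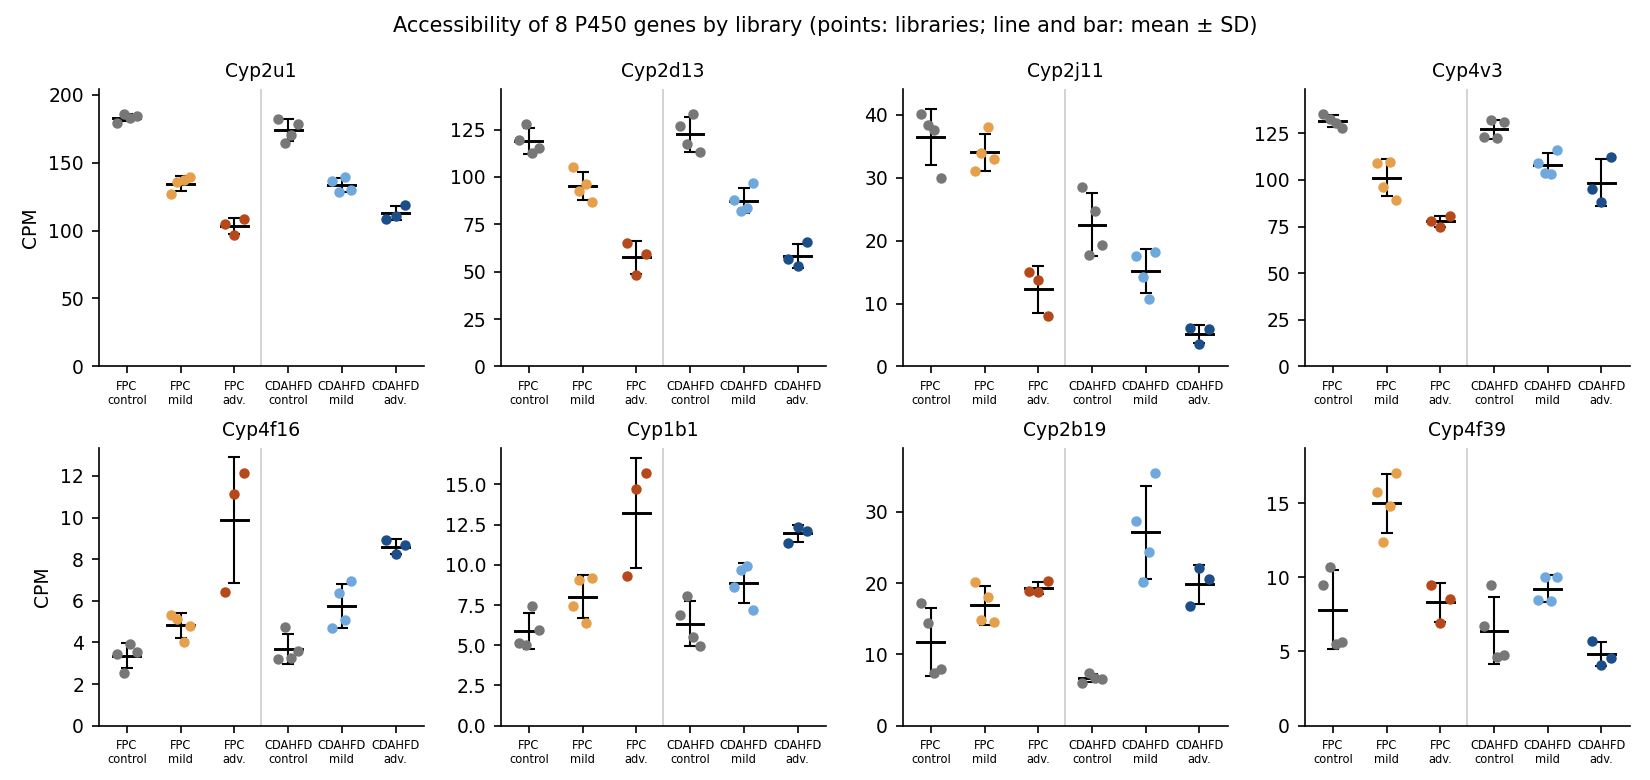
CPM of 8 P450 genes in each library (vertical axes from 0), by diet and stage, with mean ± SD. The top row shows 4 genes that fell in both diets (advanced Cyp2j11 libraries at 8.02 to 14.98 and 3.55 to 6.19 CPM); the bottom row shows genes that were higher, Cyp4f39 in the mild groups.

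The Cyp3a genes metabolize many drugs and many steroids in the liver, and the 7 members did not move together. In advanced FPC, Cyp3a44 and Cyp3a57 were higher and Cyp3a25 and Cyp3a59 lower, and in advanced CDAHFD Cyp3a11 and Cyp3a44 were higher and Cyp3a16 and Cyp3a25 lower. The sum over 29 peaks was 416 ± 23.9, 401 ± 17.8 and 346 ± 17.1 CPM in FPC and 331 ± 37.1, 384 ± 37.00 and 341 ± 47.8 in CDAHFD. Advanced libraries were below the controls in FPC alone.

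Cyp3a25 had 151, 140.4, 144 and 161 CPM in FPC controls, 92.3, 118, 125 and 109.6 in mild and 83.2, 70.8 and 83.04 in advanced FPC. In CDAHFD controls it had 88.5, 78.04, 115 and 97.6, in mild 88.6, 91.2, 67.01 and 109 and in advanced 70.1, 47.9 and 77.99. The 7-week controls were below the 20-week controls, and the changes were -0.92 ± 0.15 (adjusted p = 9.9e-06) in FPC and -0.53 ± 0.15 (adjusted p = 0.0036) in CDAHFD. The largest changes lay far from the start, at 4 peaks 33342 to 34124 bp downstream. One of them, picked after its values were seen (chr5:145975868-145976068, overlapping the next), went from 11.6, 11.1, 15.5 and 13.7 CPM in FPC controls to 2.02, 1.99 and 2.23 in advanced FPC (-2.64 ± 0.43, adjusted p = 1.0e-05), whereas the promoter peak at -84 bp changed by -0.38 ± 0.15 (adjusted p = 0.03). The mild FPC call (-0.42 ± 0.13, adjusted p = 0.014) was absent with peaks within 10 kb (adjusted p = 0.98) or 1 kb (adjusted p = 0.61).

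The promoters of Cyp3a25, Cyp3a59 and Cyp3a57, printed above with their shared hexamers, did not all move one way in FPC: the near-identical Cyp3a25 and Cyp3a59 were lower and Cyp3a57 was higher. Cyp3a59, at -94 bp, read 16.5, 13.5, 16.5 and 17.7 CPM in controls and 12.5, 10.8 and 10.8 in advanced FPC (-0.50 ± 0.17, adjusted p = 0.012). Cyp3a57, at -139 bp, read 6.30, 6.10, 5.72 and 4.05 in controls and 8.77, 8.55 and 9.55 in advanced FPC (0.69 ± 0.18, adjusted p = 0.0027). The libraries of both genes did not overlap between these groups. In CDAHFD neither passed the test (adjusted p = 0.3 and 0.076). Because Cyp3a25 and Cyp3a59 share nearly all bases here, their separate counts are uncertain. Cyp3a57 also resembles both once its sequence is shifted by a few bases, so its count may be uncertain too.

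Cyp3a44, a female-predominant gene, rose in both diets, from 20.9, 11.9, 17.2 and 10.7 CPM to 25.4, 26.9 and 27.4 in advanced FPC and from 9.89, 15.4, 11.3 and 17.3 to 43.5, 27.5 and 33.4 in advanced CDAHFD. Mild libraries read 33.4, 18.1, 21.8 and 19.1 in FPC and 29.6, 29.6, 27.7 and 29.3 in CDAHFD. The advanced libraries were above all controls, with 0.79 ± 0.22 and 1.41 ± 0.19 (adjusted p = 0.003 and 1.3e-06). Of the 8 female-predominant P450 genes listed, 5 were measured (Cyp2b10, Cyp2b13, Cyp3a16, Cyp3a44, Cyp17a1), and Cyp3a44 was called higher in both diets, Cyp3a16 lower in CDAHFD and the other 3 not called. Beside these, 29.0% of all genes were lower and 32.4% higher in advanced FPC, and 28.0% and 30.2% in advanced CDAHFD. The Cyp3a44 peak at 5463 bp (chr5:145800311-145800511) went from 12.8, 5.83, 8.40 and 5.56 CPM in FPC controls to 16.2, 18.4 and 15.9 in advanced FPC (1.03 ± 0.28, adjusted p = 0.0032) and from 3.67, 9.72, 4.28 and 7.64 to 28.2, 19.03 and 21.5 in CDAHFD (1.89 ± 0.26, adjusted p = 8.6e-07).

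Cyp3a11, the PXR target closest in role to human CYP3A4, had 124, 111, 109 and 126 CPM in FPC controls, 129, 121, 124 and 115 in mild and 115, 101 and 108 in advanced FPC, groups that overlapped. In CDAHFD it had 71.9, 74.4, 96.3 and 105 in controls, 107, 112, 108 and 125 in mild and 116, 91.1 and 117 in advanced disease. The CDAHFD changes were 0.38 ± 0.10 in mild (adjusted p = 0.0024) and 0.32 ± 0.10 in advanced disease (adjusted p = 0.011), the latter lost when only the compared groups were fitted (adjusted p = 0.075). Of 9 measured CAR and PXR targets, Cyp2c50 and Cyp3a25 were lower in both diets and Cyp3a11 higher in CDAHFD alone. Shares of all genes called lower and higher were 29.0% and 32.4% in advanced FPC and 28.0% and 30.2% in advanced CDAHFD.

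The promoter of Cyp3a11 changed more than the gene's sum. Its peak at -76 bp (chr5:145879830-145880030) covers the hexamer and the HNF4 word of the printed stretch. In CDAHFD controls it was low, with 0.847, 1.197, 1.90 and 2.72 CPM, against 6.21, 7.31, 5.66 and 7.33 in mild and 13.1, 6.68 and 9.82 in advanced CDAHFD. In FPC it read 12.1, 10.1, 6.89 and 14.2 in controls, 8.84, 11.5, 9.81 and 7.999 in mild and 13.2, 10.8 and 13.05 in advanced disease. All CDAHFD disease libraries lay above all CDAHFD controls, with log2 fold changes of 2.60 ± 0.28 (adjusted p = 1.7e-08) in advanced and 2.01 ± 0.28 (adjusted p = 2.6e-06) in mild CDAHFD, and FPC did not pass the test (adjusted p = 0.45 and 0.64). The 2 diets differed in both stages (2.39 ± 0.38, adjusted p = 0.0012, and 2.17 ± 0.37, adjusted p = 0.0014, CDAHFD minus FPC). The controls themselves differed by 2.68 ± 0.28 (adjusted p = 4.3e-06, 20 minus 7 weeks), while the disease libraries spanned 5.66 to 13.1 CPM in CDAHFD and 7.999 to 13.2 in FPC. A peak at -1572 bp read 14.3 ± 2.73 CPM in CDAHFD controls and 27.9 ± 4.68 in advanced CDAHFD (0.97 ± 0.16, adjusted p = 8.9e-06). The promoter peak was picked after its values had been seen.

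The Cyp2c genes, which handle drugs, arachidonic acid and bile acids, had overlapping sums in advanced disease and control. The 9 members summed to 275 ± 28.04, 288 ± 19.98 and 247 ± 7.40 CPM in FPC and 251 ± 33.4, 290.4 ± 17.9 and 235 ± 21.2 in CDAHFD. Cyp2c50 and Cyp2c67 were the 2 members lower in both diets (-1.15 ± 0.28 and -0.55 ± 0.17 in FPC, -0.82 ± 0.26 and -0.41 ± 0.16 in CDAHFD, adjusted p from 9.9e-04 to 0.034). Cyp2c39 was higher in mild disease of both diets (0.47 ± 0.16 and 0.57 ± 0.15, adjusted p = 0.026 and 0.0033). Cyp2c70, which makes the muricholic acids of mouse bile, read 63.2 ± 6.45 CPM in FPC controls, 66.7 ± 4.46 in mild and 57.1 ± 7.18 in advanced FPC, and 60.6 ± 8.20, 64.9 ± 4.29 and 52.9 ± 7.08 in CDAHFD. It was called in none of the 9 comparisons, nor was its promoter peak at -83 bp, over the printed HNF4 word, called in the advanced stage (0.08 ± 0.19 and -0.14 ± 0.19, adjusted p = 0.74 and 0.55).

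On chromosome 7, the neighbouring Cyp2a, Cyp2b, Cyp2f, Cyp2g and Cyp2s genes split. Cyp2a12, which hydroxylates bile acids, had 69.1, 83.9, 72.3 and 78.5 CPM in FPC controls and 65.2, 56.7 and 59.3 in advanced FPC, and 77.1, 73.7, 81.9 and 88.04 in CDAHFD controls and 57.7, 61.3 and 69.1 in advanced CDAHFD. Its advanced libraries were below all controls (-0.33 ± 0.10 and -0.36 ± 0.09, adjusted p = 0.0068 and 0.0023). Cyp2a5, the coumarin and nicotine hydroxylase, rose in CDAHFD, from 13.4, 14.4, 10.7 and 14.3 CPM to 30.4, 27.6, 30.3 and 35.2 in mild and 21.03, 33.3 and 28.2 in advanced disease. Those changes were 1.24 ± 0.17 and 1.05 ± 0.18 (adjusted p = 2.0e-06 and 2.4e-05). In FPC it read 19.5, 26.4, 18.01 and 11.8 in controls, 31.1, 19.8, 26.9 and 24.8 in mild and 25.03, 24.4 and 20.7 in advanced disease, which overlap, and did not pass the test (advanced 0.31 ± 0.19, adjusted p = 0.15). The difference between the diets was 0.74 ± 0.26 in the advanced stage (adjusted p = 0.1) and 0.80 ± 0.25 in the mild stage (adjusted p = 0.056), and did not pass. Its promoter peak at -105 bp (chr7:26835134-26835334), went from 1.98, 2.39, 1.54 and 2.38 CPM to 6.47, 6.53, 6.80 and 6.49 and 5.34, 9.01 and 6.83 in CDAHFD (1.76 ± 0.25 in the advanced stage, adjusted p = 1.2e-06).

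Cyp2b10 is the classical CAR target, and Cyp2b13 and Cyp2b19 are its neighbours, the latter known from skin. Cyp2b19 was counted from 2 overlapping peaks, 24672 and 24800 bp from its start. It had no promoter peak, so its values describe a distal stretch. Cyp2b19 had 17.2, 14.4, 7.44 and 7.998 CPM in FPC controls, 20.2, 14.8, 18.04 and 14.5 in mild and 18.96, 18.8 and 20.3 in advanced FPC. In CDAHFD it had 6.03, 7.37, 6.75 and 6.54 in controls, 28.7, 20.2, 24.3 and 35.4 in mild and 16.8, 22.1 and 20.6 in advanced disease. All disease libraries of CDAHFD were above their controls, with 2.03 ± 0.20 in mild (adjusted p = 2.2e-08), the largest rise of any member, and 1.56 ± 0.22 in advanced disease (adjusted p = 1.7e-06). In FPC the changes were 0.55 ± 0.22 and 0.76 ± 0.22 (adjusted p = 0.045 and 0.0051), 1 of 4 controls lay within the mild range, and the mild call was lost with median-ratio scaling (adjusted p = 0.051) or with only the compared groups fitted (adjusted p = 0.062). Cyp2b13 was higher in mild FPC, with 29.2, 33.3, 30.5 and 28.4 CPM in controls, 38.9, 37.9, 47.5 and 36.7 in mild and 29.6, 32.9 and 30.5 in advanced FPC (0.41 ± 0.12, adjusted p = 0.0072, then -0.38 ± 0.12, adjusted p = 0.016). Cyp2b10 was higher in mild FPC (0.37 ± 0.14, adjusted p = 0.034) and did not pass in the advanced stage (0.27 ± 0.14 and 0.27 ± 0.15, adjusted p = 0.11 and 0.11).

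Cyp2f2, the naphthalene-activating enzyme, was lower in both stages of both diets (-0.52 ± 0.09 and -0.39 ± 0.08 in the advanced stage, adjusted p = 1.4e-05 and 3.0e-04). Its promoter peak at -103 bp (chr7:27119752-27119952), within the printed stretch but downstream of its hexamer at -221, was picked after its values were seen. It went from 15.99, 15.6, 13.1 and 18.7 CPM in FPC controls to 14.9, 9.15, 8.43 and 5.33 in mild and 5.23, 3.70 and 5.41 in advanced FPC. In CDAHFD the values were 10.6, 11.4, 10.7 and 9.85 in controls, 6.47, 5.09, 4.86 and 9.11 in mild and 3.85, 4.34 and 5.69 in advanced disease. Advanced libraries lay below all controls, with log2 fold changes of -1.73 ± 0.26 and -1.21 ± 0.25 (adjusted p = 3.7e-06 and 2.3e-04). Cyp2s1, an extrahepatic P450, was higher: 25.2, 27.02, 18.2 and 19.5 CPM in FPC controls and 30.7, 35.7 and 32.3 in advanced FPC, 28.8, 17.5, 20.4 and 20.2 in CDAHFD controls and 36.4, 28.6 and 33.1 in advanced CDAHFD (0.57 ± 0.16 and 0.60 ± 0.14, adjusted p = 0.0028 and 0.001). In CDAHFD 1 control reached into the advanced range. Cyp2s1 had no promoter peak, and its 4 peaks lay 10865 to 21633 bp from its start. Cyp2g1, an olfactory P450, was higher in mild disease of both diets (0.28 ± 0.11 and 0.36 ± 0.10, adjusted p = 0.037 and 0.0041).

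Of 6 P450 genes of steroid hormone synthesis, 4 were measured. Cyp19a1, the aromatase that makes oestrogens, rose in both diets, with 13.2, 13.2, 12.5 and 11.3 CPM in FPC controls, 18.5, 21.4, 21.6 and 22.9 in mild and 26.5, 25.8 and 24.9 in advanced FPC. In CDAHFD it had 30.00, 22.4, 20.8 and 18.4 in controls, 29.02, 29.7, 24.1 and 23.8 in mild and 41.1, 38.9 and 39.00 in advanced disease. The advanced changes were 1.04 ± 0.14 (adjusted p = 1.2e-06) and 0.79 ± 0.11 (adjusted p = 2.2e-06), with no overlap. Cyp19a1 had no promoter peak, and its 2 peaks lay 30447 and 37200 bp from the start, so its values describe distal stretches. The rise lay in a peak annotated as intergenic, 37200 bp from the start (chr9:54156443-54156643), which went from 5.81, 5.30, 7.06 and 5.56 CPM in FPC controls to 19.7, 20.2 and 16.7 in advanced FPC (1.64 ± 0.18, adjusted p = 3.5e-08) and from 20.5, 14.1, 11.9 and 12.1 to 28.6, 29.5 and 28.3 in CDAHFD (0.98 ± 0.14, adjusted p = 2.0e-06). Cyp11b2, aldosterone synthase, was higher, with changes of 0.68 ± 0.19 and 0.52 ± 0.16 (adjusted p = 0.0035 and 0.009) from 1 peak at -1246 bp. Cyp21a1, the steroid 21-hydroxylase, was lower, with changes of -0.57 ± 0.14 and -0.90 ± 0.14 (adjusted p = 0.0011 and 4.3e-06), and Cyp17a1 was called in none of the comparisons. For Cyp21a1 too there was no promoter peak, its 2 peaks lying 4409 and 4709 bp from its start.

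Enzymes of retinoids, vitamin D and oxysterols were lower or not called. Cyp26a1, the retinoic acid hydroxylase, went from 98.3 ± 8.78 to 63.99 ± 14.6 CPM in advanced FPC (-0.63 ± 0.12, adjusted p = 6.5e-05) and from 80.5 ± 10.8 to 66.7 ± 4.77 in CDAHFD (-0.27 ± 0.11, adjusted p = 0.042). Cyp2r1, the vitamin D 25-hydroxylase, changed by -0.26 ± 0.07 and -0.20 ± 0.07 (adjusted p = 0.0018 and 0.012). Cyp24a1, which degrades vitamin D, was not called (-0.07 ± 0.18 and -0.10 ± 0.18). Cyp39a1, an oxysterol hydroxylase, was lower in FPC (-0.75 ± 0.16, adjusted p = 3.1e-04), while in CDAHFD the sum did not pass (-0.14 ± 0.14, adjusted p = 0.41) although its intronic peak at 17525 bp fell (-1.36 ± 0.21 in FPC and -0.62 ± 0.19 in CDAHFD, adjusted p = 5.8e-06 and 0.0065). The orphan Cyp20a1 was lower in both (-0.39 ± 0.08 and -0.19 ± 0.07, adjusted p = 1.2e-04 and 0.027). Of its 4 peaks, the 2 farthest, at -48887 and -49213 bp, lie in an intron of another transcript and just inside the 50 kb limit. The peak at -49213 bp had group means of 21.5 CPM in FPC controls and 11.1 in advanced FPC, while the promoter peak at -45 bp changed by -0.13 ± 0.10 (adjusted p = 0.28). Just outside it were a peak of Cyp3a41b at -50664 bp, with group means of 7.02 CPM in FPC controls and 7.77 in advanced FPC, and one of Cyp19a1 at 54375 bp, with 7.01 and 4.82 CPM.

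Cyp1a1 and Cyp1b1 are AhR targets. Cyp1a1 was not called in the advanced stage (-0.22 ± 0.10 in FPC and 0.03 ± 0.09 in CDAHFD, adjusted p = 0.067 and 0.83) and was higher in mild CDAHFD (0.31 ± 0.08, adjusted p = 0.0047). Cyp1b1, better known from fibroblasts than from hepatocytes, had 5.16, 5.03, 7.44 and 5.92 CPM in FPC controls, 7.42, 9.06, 6.41 and 9.17 in mild and 9.29, 14.7 and 15.7 in advanced FPC. In CDAHFD it had 6.87, 8.07, 5.49 and 4.96 in controls, 8.61, 9.71, 9.92 and 7.18 in mild and 11.4, 12.3 and 12.1 in advanced disease. The advanced libraries were above all controls (1.14 ± 0.21 and 0.91 ± 0.19, adjusted p = 4.5e-05 and 2.3e-04). Of its 2 peaks the change was in the one 31219 bp upstream of the start (chr17:79746160-79746360, intergenic). That peak, picked after its values were seen, held 0.242, 0.265, 0.504 and 0 CPM in FPC controls, 2.41, 1.79, 1.55 and 1.9996 in mild and 3.71, 6.84 and 7.32 in advanced FPC, and 0.282, 0.449, 0.238 and 0 in controls, 2.59, 1.83, 3.72 and 1.88 in mild and 4.81, 5.84 and 5.41 in advanced disease of CDAHFD. Over a group these were 5 and 116 counts in FPC and 7 and 118.5 in CDAHFD, and the fitted changes were 4.33 ± 0.47 and 4.31 ± 0.43 (adjusted p = 2.4e-08 and 2.9e-09). The promoter peak at -699 bp did not pass the test (0.29 ± 0.23 in FPC, adjusted p = 0.28, with 4.12, 4.24, 5.88 and 5.06 CPM in controls and 4.72, 6.55 and 6.68 in advanced FPC). Without the distal peak, which a limit of 10 kb leaves out, the gene changed by 0.17 in advanced FPC (adjusted p = 0.53), -0.12 in advanced CDAHFD and -0.061 in mild CDAHFD.

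Of the 239 peaks, 82 were lower and 23 higher in advanced FPC (28.0% and 27.6% of all 68827 peaks) and 88 lower and 27 higher in advanced CDAHFD (28.8% and 26.7%). In mild disease 22 were lower and 22 higher in FPC (13.6% and 15.1% of all peaks), and 43 lower and 34 higher in CDAHFD (20.0% and 20.7%). Advanced against mild gave 68 lower and 6 higher in FPC (14.6% and 14.7%) and 44 lower and 7 higher in CDAHFD (7.26% and 9.28%). Without FPC advanced replicate 2 the 68 became 29 and the 6 became 3, and without CDAHFD advanced replicate 2 the 44 became 21. Among the 61 peaks within 1 kb of a member's start, 18 were lower and 6 higher in advanced FPC, against 12.1% and 38.9% of all 20072 such peaks. In advanced CDAHFD 24 were lower and 5 higher, against 13.7% and 31.5%. Member peaks were more often intergenic (45.2% against 30.6% of all peaks) and less often intronic (26.4% against 40.3%), with 21.8% against 22.6% in promoters; these are descriptions with no test. Of 67 members 40 had a promoter peak.

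**Figure D5:**
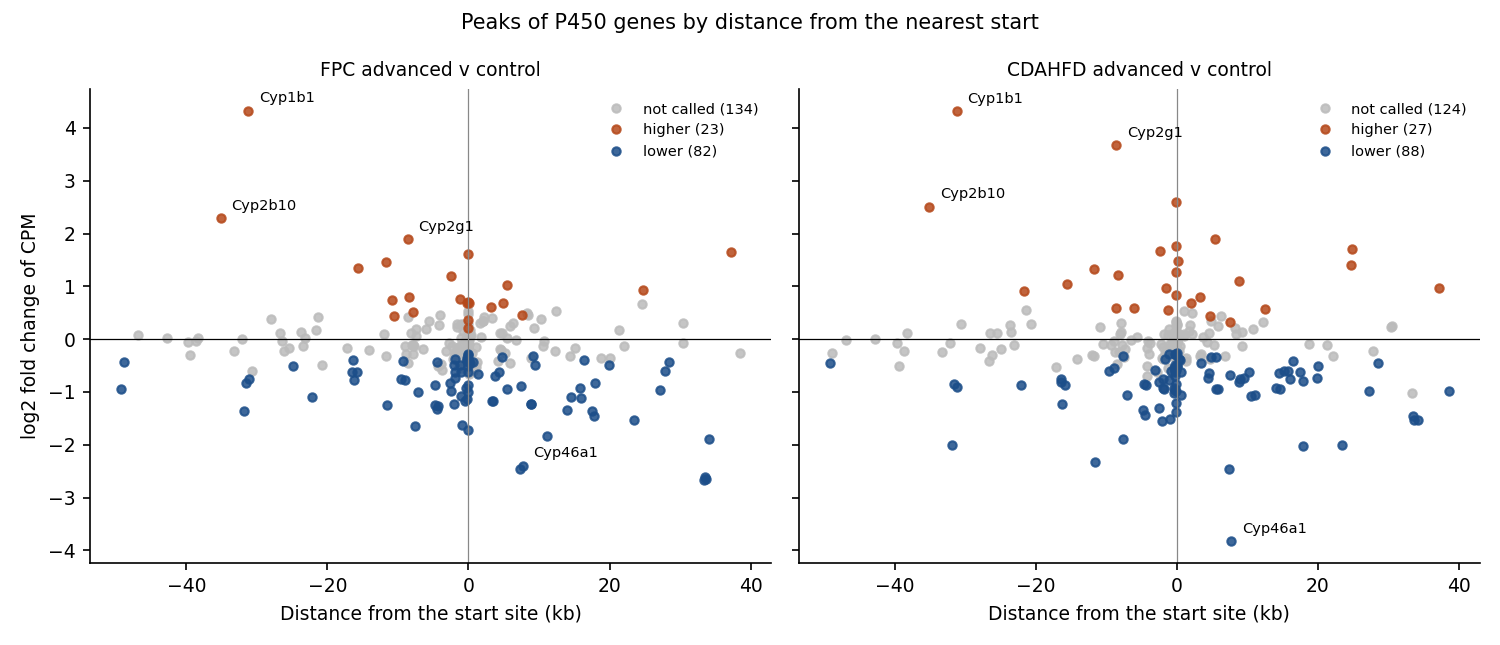
Log2 fold change of each of the 239 peaks (vertical axis) by distance from the start of its gene (horizontal axis, kb; negative is upstream), advanced against control, in FPC (left) and CDAHFD (right). Lower peaks (82 and 88) spread over the whole range, and the highest point in both diets is the Cyp1b1 peak 31.2 kb upstream.

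A few distal peaks changed far more than the sums of their genes; these were singled out after their values had been seen. Cyp2b10 has a peak 35116 bp upstream (chr7:25862442-25862642) that read 2.42, 3.18, 2.02 and 1.01 CPM in FPC controls, 4.62, 7.0005, 6.88 and 7.33 in mild and 8.77, 11.3 and 11.5 in advanced FPC. In CDAHFD it read 1.69, 0.598, 0.950 and 0.849 in controls, 2.98, 3.13, 3.24 and 3.14 in mild and 6.84, 6.68 and 4.27 in advanced disease. Every disease library exceeded the controls of its diet, by 2.29 ± 0.26 and 2.51 ± 0.29 in the advanced stage (adjusted p = 5.7e-08 and 3.9e-08). The Cyp2g1 peak 8603 bp upstream (chr7:26800224-26800424) read 2.42, 2.12, 2.35 and 2.28 CPM in FPC controls, 5.22, 6.10, 4.99 and 3.999 in mild and 8.43, 9.97 and 7.32 in advanced FPC. In CDAHFD it read 1.13, 0.299, 0.713 and 1.36 in controls, 7.64, 8.75, 6.31 and 7.33 in mild and 9.51, 14.7 and 9.67 in advanced disease. The rise was 1.89 ± 0.26 in FPC and 3.67 ± 0.26 in CDAHFD (adjusted p = 7.3e-07 and 9.6e-12), while the Cyp2g1 sum was not called in either.

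Cyp46a1, the cholesterol 24-hydroxylase of neurons, lost an intronic peak. The peak lies 7720 bp from its start in intron 1 of 14 (chr12:108341936-108342136) and read 13.1, 11.1, 9.41 and 6.07 CPM in FPC controls, 3.41, 3.23, 5.16 and 2.999 in mild and 1.85, 2.28 and 1.43 in advanced FPC. In CDAHFD it read 7.91, 7.78, 10.9 and 6.96 in controls, 2.33, 1.44, 1.29 and 1.88 in mild and 0.641, 0.167 and 0.854 in advanced disease. No disease library reached a control, with changes of -2.395 ± 0.30 and -3.83 ± 0.35 (adjusted p = 1.8e-07 and 7.5e-10). The gene's sum, dominated by a promoter peak of 70.5 CPM in FPC controls and 81.7 in advanced FPC, moved by -0.16 ± 0.06 in CDAHFD (adjusted p = 0.028) and was not called in FPC (adjusted p = 1). Of the 31 members not called in advanced FPC, 12 held at least 1 called peak, as did 10 of 28 in advanced CDAHFD. Among members with more than 1 peak, 4 of 53 in FPC and 5 of 53 in CDAHFD had called peaks in both directions. How many of all genes did either was not counted, so no trait particular to P450 genes is read from these counts. Over all peaks, 28.0% were lower and 27.6% higher in advanced FPC, and 28.8% and 26.7% in advanced CDAHFD.

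The diets were compared by the difference of their changes, CDAHFD minus FPC. In the advanced stage 1 gene, Cyp4v3, was called (0.39 ± 0.11, adjusted p = 0.034, a smaller fall in CDAHFD) and none lower, against 2.95% and 1.92% of all genes called higher and lower. Leaving out 1 library removed that call for 9 of the 14 libraries compared (FPC control 1, 2 or 3, FPC advanced 1 or 2, CDAHFD control 1 or 3, CDAHFD advanced 1 or 3). In the mild stage Cyp2b19 was called (1.48 ± 0.30, adjusted p = 0.0051, a larger rise in CDAHFD) and none lower, against 2.79% and 2.49% of all genes. For peaks the counts were 2 higher and 0 lower in the advanced stage (0.91% and 0.69% of all peaks), which are the Cyp3a11 promoter peak and the Cyp2g1 peak at -8603 bp (1.78 ± 0.40, adjusted p = 0.023). In the mild stage 5 were higher and 1 lower (1.63% and 1.84%). The 5 were those 2 peaks (Cyp2g1 1.97 ± 0.40, adjusted p = 0.0064), 2 overlapping peaks of Cyp2b19 at 24672 and 24800 bp and 1 of Cyp2a5 at 8847 bp, and the lower one was a Cyp26b1 peak at 10275 bp. All but the Cyp3a11 peak among the higher ones lie on chromosome 7.

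The 2 control groups received the same low-fat diet for 20 or 7 weeks. Between them 4 members were higher at 20 weeks and 1 lower, against 3.79% and 2.26% of all genes. Cyp3a25 (0.65 ± 0.13, adjusted p = 0.0045), Cyp2j11 (0.69 ± 0.17, adjusted p = 0.013), Cyp2b10 (0.51 ± 0.14, adjusted p = 0.033) and Cyp3a11 (0.43 ± 0.10, adjusted p = 0.011) were higher at 20 weeks, and Cyp19a1 was lower (-0.87 ± 0.14, adjusted p = 3.7e-04). The Cyp3a25 difference was carried by peaks over 10 kb from the start (adjusted p = 0.50 with peaks within 10 kb). Of the 239 peaks 9 were higher and 1 lower (2.05% and 0.661% of all peaks), 4 of the 9 at Cyp3a25. Age, weeks on diet and cohort cannot be told apart here, and they differ in the same way between the disease groups of the 2 diets.

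Electron donors of the microsomal and mitochondrial P450s and the enzymes of haem synthesis were mixed. Of 18 such genes 17 were measured; 5 were lower and 2 higher in advanced FPC, and 5 lower and 5 higher in advanced CDAHFD, beside 29.0%, 32.4%, 28.0% and 30.2% of all genes in the same order. Fdx1, the ferredoxin of mitochondrial P450s, changed by -0.48 ± 0.06 and -0.46 ± 0.06 (adjusted p = 1.8e-07 and 1.9e-07), while its reductase Fdxr changed by 0.38 ± 0.07 and 0.55 ± 0.07 (adjusted p = 5.9e-05 and 2.3e-07). Cpox, of haem synthesis, was lower (-0.56 ± 0.07 and -0.45 ± 0.07, adjusted p = 8.2e-07 and 8.2e-06), and cytochrome b5 (Cyb5a) was lower in FPC (-0.36 ± 0.06, adjusted p = 5.1e-06) and not called in CDAHFD (adjusted p = 0.11).

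Among 28 known regulators of P450 genes 27 were measured. In advanced FPC 15 were lower and 1 higher, with a median of -0.29, and in advanced CDAHFD 11 were lower and 5 higher, with a median of -0.12, beside 0.03 and 0.01 for all genes. Of all genes, 29.0% were lower and 32.4% higher in advanced FPC, and 28.0% and 30.2% in advanced CDAHFD. The nuclear receptor Nr5a2 was lower in both (-0.41 ± 0.05 and -0.19 ± 0.05, adjusted p = 5.0e-07 and 0.0031), as was the oestrogen receptor gene Esr1 (-0.67 ± 0.09 and -0.26 ± 0.09, adjusted p = 7.4e-07 and 0.014). Dbp, a circadian activator of Cyp genes, was higher in CDAHFD (0.61 ± 0.09, adjusted p = 6.2e-06) and not called in FPC (adjusted p = 0.15). The labels give no clock time of collection.

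By stage, 7 members were lower in mild FPC than in control and lower again in advanced than in mild FPC (Cyp2d13, Cyp2f2, Cyp2j5, Cyp2u1, Cyp3a25, Cyp4f37, Cyp4v3), and 9 in CDAHFD (Cyp21a1, Cyp2d10, Cyp2d13, Cyp2d34, Cyp2d40, Cyp2j11, Cyp2j5, Cyp2u1, Cyp4f15). Both comparisons use the mild libraries, so they are not independent. Cyp2b13, Cyp2c39, Cyp2g1 and Cyp4f39 were higher in mild FPC and lower again in advanced than in mild FPC, and Cyp1a1, Cyp2c39 and Cyp4f39 did the same in CDAHFD. Called in none of the 9 comparisons were 15 members: Cyp17a1, Cyp24a1, Cyp26b1, Cyp2a22, Cyp2c23, Cyp2c29, Cyp2c37, Cyp2c55, Cyp2c68, Cyp2c70, Cyp2j6, Cyp2w1, Cyp4a14, Cyp4f13 and Cyp4f18. How many of all genes took these paths, or were never called, was not counted, so no trait particular to P450 genes is read from them. Taken singly, 18.9% of all genes were lower in mild FPC against control and 15.9% in advanced against mild FPC. For CDAHFD these shares were 21.0% and 7.76%. Higher in mild disease against control were 21.3% of all genes in FPC and 23.9% in CDAHFD.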

How the data were processed

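ATAC-seq of hepatocyte nuclei pulled down on beads was analysed in 22 libraries of 6 groups. Per the submitters' processing notes, reads were aligned to mm10 with BWA 0.7.5a-r405 and handled with SAMtools, HOMER and DESeq2, with no version given for the last 3; how reads mapping to several places were treated is stated in no source used here. As deposited, the authors' table gives estimated counts, which need not be whole, over 68827 peaks with each peak's nearest gene, and was rounded to whole numbers after summing. A second deposited table, of normalized values, was not used.

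Counts of peaks within 50 kb of the start were summed per gene and fitted in R 4.3.3 with edgeR 4.0.16 (quasi-likelihood test, TMM scaling, factors 0.983 to 1.02, all 6 groups in 1 fit). P-values were adjusted by Benjamini-Hochberg over all 15686 genes or all 68827 peaks, with calls at an adjusted p under 0.05; every adjusted p printed is from this test unless another is named. CPM use the scaled totals of gene sums or of peaks. The SE is the log2 fold change divided by the root of F. The low-count filter removed no gene and no peak. The common dispersion was 0.00471 for genes and 0.0114 for peaks.

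The P450 genes and the gene lists were chosen with earlier results of these data known. Members described one by one were, for advanced disease against control in each diet, up to 6 called per direction with the smallest p; the 6 with the highest CPM in controls; up to 4 with a diet difference; up to 2 per direction in mild disease; and the highest in each subfamily of 3 or more. Other genes are named as members of a list or subfamily, or after their values were seen. Peaks described were up to 4 gained and 4 lost with the largest change among peaks above the median level, 1 per gene, and the promoter peaks of the first group of members. Other peaks were added after their values were seen, as the widest-moving peak of a gene, for a diet difference or as further promoter peaks.

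On simulated counts for advanced FPC against control, the gene step (15681 genes) recovered 67.2%, 92.5% and 96.9% of genes changed 1.5, 2 and 4-fold, with 12 false calls, and the peak step (68807 peaks) 14.9%, 49.3% and 100% with 23. These shares are of the changed features still tested, since any dropped there by the low-count filter were left out. This simulation fitted the FPC control and FPC advanced libraries alone and changed only 67, 67 and 66 features per step. The real fit held all 22 libraries and far more called features, so its recovery may differ. Alternatives were RLE, total-count and all-peak scaling, a stricter filter on low counts, DESeq2 1.42.0, fitting only the groups compared, peaks within 10 kb or 1 kb, and leaving out each library. One regulator and its motif are not reported here.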

Additional observations from a re-analysis of the deposited data

Results flagged for a closer look

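Of 252 groups of 4 libraries looked at, 12 had 1 library standing apart from the other 3 by Dixon's criterion; chance does so in about 1 group in 20. For gene sums these were Cyp2c70 in FPC mild replicate 2 (60.1 CPM, the nearest other library at 68.2), Cyp2d10 in CDAHFD mild replicate 2 (154 against 160.2), Cyp2j5 in CDAHFD mild replicate 1 (127 against 136), Cyp3a44 in CDAHFD mild replicate 3 (27.7 against 29.3) and Cyp4a32 in CDAHFD control replicate 4 (16.9 against 30.3). The Cyp4a sum of CDAHFD mild replicate 4 was 128 CPM against 103. Among peaks, Cyp3a44 at 5463 bp read 21.3 CPM in FPC mild replicate 1 (10.1 in the next library), and Cyp3a11 at -1572 bp read 28.7 in CDAHFD mild replicate 4 (22.003). The Cyp2j5 promoter peak at -10 bp read 44.5 in FPC control replicate 4 (37.6) and 24.6 in CDAHFD mild replicate 1 (28.6). FPC mild replicate 1 also stood apart at Cyp2b10 -35116 bp (4.62 against 6.88) and at Cyp2b19 24800 bp (12.9 against 8.998).

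The change from control differed between the diets, by the interaction term of the fit, for 2 genes and 8 peak comparisons. Values are CDAHFD minus FPC on the log2 scale with SE and edgeR's adjusted p. In the advanced stage these were Cyp4v3 (0.39 ± 0.11, adjusted p = 0.034), the Cyp2g1 peak at -8603 bp (1.78 ± 0.40, adjusted p = 0.023) and the Cyp3a11 peak at -76 bp (2.39 ± 0.38, adjusted p = 0.0012). In the mild stage they were Cyp2b19 (1.48 ± 0.30, adjusted p = 0.0051), Cyp2g1 at -8603 bp (1.97 ± 0.40, adjusted p = 0.0064) and Cyp3a11 at -76 bp (2.17 ± 0.37, adjusted p = 0.0014). The other mild ones were Cyp26b1 at 10275 bp (-1.30 ± 0.33, adjusted p = 0.028), Cyp2b19 at 24672 bp (1.67 ± 0.39, adjusted p = 0.016) and 24800 bp (1.33 ± 0.31, adjusted p = 0.017), and Cyp2a5 at 8847 bp (1.39 ± 0.39, adjusted p = 0.047). Diet, weeks on diet and cohort cannot be told apart in these differences.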

How the results depend on the processing

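No paired analysis was possible because the numbers of the libraries only name them and pair no libraries across groups. The distance limit moved the counts of called members most. With peaks within 1 kb, which 40 of the 67 members have, members called higher in advanced FPC went from 9 to 3, in advanced CDAHFD from 10 to 3 (lower 29 to 19), in mild FPC from 11 to 2 (lower 10 to 6), in mild CDAHFD from 16 to 6, in advanced against mild FPC from 2 to 1 (lower 28 to 12) and in advanced against mild CDAHFD from 2 to 0 (lower 22 to 6); the diet differences went from 1 to 2 in each stage and the lower control call from 1 to 0. Within 10 kb the higher counts were 4, 6 and 5 in advanced FPC, advanced CDAHFD and mild FPC, 1 in each advanced against mild comparison, 2 and 0 for the diet differences, and 2 higher and 0 lower for the controls. These limits leave fewer peaks in each sum. DESeq2 gave 1 higher member in advanced against mild CDAHFD, 2 for the mild diet difference and 2 lower peaks there. Fitting only the groups compared gave 1 lower member for the mild diet difference and 2 higher for the controls. The cause was not tested for these. Cyp1b1 in CDAHFD reversed to -0.16 (1 kb) and -0.12 (10 kb) in advanced and to -0.087 and -0.061 in mild disease. Total-count scaling and the all-peak factors, the latter added after seeing the data, gave 322 higher and 413 lower, and 294 and 382, of all genes for the advanced diet difference, in place of 463 and 301.

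Leaving out 1 library gave 5 to 13 higher members in mild FPC, 1 to 3 higher and 13 to 25 lower in advanced against mild CDAHFD, 0 to 3 for the advanced diet difference, and 1 to 2 higher and 0 to 1 lower for the mild one. For peaks it gave 14 to 30 higher in mild FPC (14 without FPC control 3), 3 to 8 higher and 29 to 63 lower in advanced against mild FPC (3 and 29 without FPC advanced 2), 4 to 7 and 21 to 38 in advanced against mild CDAHFD (28, 23 and 21 lower without CDAHFD mild 4, advanced 1 or advanced 2), 1 to 4 higher for the advanced diet difference, and 2 to 7 higher and 0 to 4 lower for the mild one. The advanced counts against control stayed at 8 to 10 higher and 26 to 29 lower members in FPC and 9 to 12 and 26 to 31 in CDAHFD. The Cyp3a11 call in advanced CDAHFD was lost without CDAHFD control 1 or 2 or CDAHFD advanced 1 or 3. Of the values of members described one by one, 1529 under other settings were on the same side of the threshold with the same sign, 29 lost the call, 22 gained one and 4 reversed; without a library, 1871 were the same, 66 lost and 31 gained a call. Named peaks, partly chosen after seeing the data, gave 1065, 5 lost and 10 gained, and 2324, 98 lost and 38 gained. On simulated counts of the FPC control and FPC advanced libraries alone, the peak test recovered 14.9% of 1.5-fold and 49.3% of 2-fold changes. Recovery in the fit of all 22 libraries may differ.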
